A study of Mus musculus with 18 samples.

Results

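Livers of 2-week-old mice given the leukaemia drug asparaginase were compared with livers of mice of the same age given phosphate buffered saline (PBS). The comparison uses 6 of the 18 libraries of the series, chosen by their labels: 3 libraries of 2-week-old mice with asparaginase and 3 of 2-week-old mice with PBS. By their labels 2 of the PBS mice were male and 1 was female, and 1 of the asparaginase mice was male and 2 were female. All mice were of the C57BL/6J strain and carried no other labelled allele or agent. Each received an intraperitoneal injection once a day for 7 days, either L-asparaginase (Elspar) at 3 IU per g of body weight or the same volume of PBS, and liver was taken 7.5 h after an injection. The other 12 libraries, 3 with asparaginase and 3 with PBS at 8 weeks (8 injections) and at 16 weeks (7 injections), entered the model so that all groups share 1 estimate of the spread, and they serve as the adult reference. Polyadenylated RNA of whole liver was sequenced, with 3 libraries a group.

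Asparaginase hydrolyses circulating asparagine, and to a lesser extent glutamine. Cells that lack an amino acid accumulate uncharged transfer RNA, which activates the kinase GCN2; phosphorylated eIF2 then lowers general translation while the transcription factor ATF4 and its partners raise genes for amino acid synthesis, uptake and stress adaptation. The liver of a suckling mouse still grows by cell division, makes most plasma proteins of the pup and lives on the fat of milk, so growth, translation, lipid and secretory genes were each described beside the amino acid response.

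The 6 libraries held between 26507374 and 28491923 counts. Levels are given as CPM, counts relative to the library size after TMM scaling, and replicates are numbered in order of deposition and pair no mice. 3 of the 6 libraries held transcripts of both sexes against their labels. Xist, the RNA of the inactive X chromosome, and the summed Y-linked transcripts stood at 263 and 52.4 CPM in PBS replicate 1, at 361 and 57.3 CPM in PBS replicate 2 and at 279 and 57.0 CPM in asparaginase replicate 3. Whether each of these libraries is of 1 mouse was not tested, so n counts libraries, and no sex term was fitted at 2 weeks. Transcripts of the pancreatic acinar cell were present in all 6 libraries. The 12 acinar genes of the list summed to between 76.1 and 194 CPM in the PBS libraries and to between 646 and 1855 CPM in the asparaginase libraries, with none of the 12 at 0. Amy2a5, an amylase gene, made up much of the PBS sums, at 89.7, 106 and 69.9 CPM. In PBS replicate 3 Cela1 was at 3.55 CPM and the rest of the list between 0.166 and 0.583 CPM. For 11 of the 12 the asparaginase libraries all lay above the PBS libraries (8.09% of all genes did). The part of acinar transcripts in the results was not tested. B cell genes summed to between 2.64 and 5.05 CPM with PBS and to between 1.92 and 2.89 CPM with asparaginase, and neutrophil genes to between 5.78 and 15.8 CPM and to between 6.06 and 7.80 CPM, with Ly6g at 0 in all 6 libraries. The defining hepatocyte genes were high throughout, with Alb at 36492 CPM or more, and of 4 kidney genes the highest value was 0.0564 CPM. Traces of other tissues varied between libraries. Skeletal muscle genes summed to between 11.2 and 170 CPM with PBS and to between 29.3 and 194 CPM with asparaginase. The keratin gene Krt13 of squamous epithelium ran from 0.148 to 29.2 CPM with PBS and from 0 to 14.4 CPM with asparaginase. The intestinal genes Vil1 and Muc2 stood at 6.29 and 1.64 CPM in asparaginase replicate 2 and at most at 0.651 and 0.111 CPM in the other 5 libraries. The part of these tissues in the results was not tested.

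PBS replicate 1 stood apart in its fetal transcripts. Igf2, the fetal growth factor, was at 1.81 CPM in it against 362 and 373 CPM in PBS replicates 2 and 3 and 86.3, 319 and 216 CPM in the asparaginase libraries. H19, the non-coding RNA of the same imprinted region, was at 172 CPM against 2710 and 3999 CPM in the other PBS libraries, and Afp, the fetal albumin, at 3.50 against 130 and 139 CPM. In the adult PBS libraries Igf2 lay between 0.42 and 1.12 CPM and Afp between 0.91 and 2.34 CPM. The Igf2 and Afp levels of PBS replicate 1 thus lay nearer to the adult libraries than to the other libraries of 2 weeks. Among 7891 genes that reached 10 CPM in a library of 2 weeks, 212 differed more than 2-fold from both other PBS libraries in replicate 1, against 19 in replicate 2 and 81 in replicate 3. In replicate 1 H19, at 172 CPM, lay above the adult PBS libraries, which reached 54.8 CPM. Its Cdk1, Mki67 and Top2a levels were 15, 38 and 20 CPM, near those of PBS replicates 2 and 3. The adult PBS libraries reached at most 2.7, 9.4 and 5.9 CPM for these genes. The age label of this library was not tested by other means, and values of the PBS group are read with that limit. Results that this library carries are given with and without it below.

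**Figure D1:**
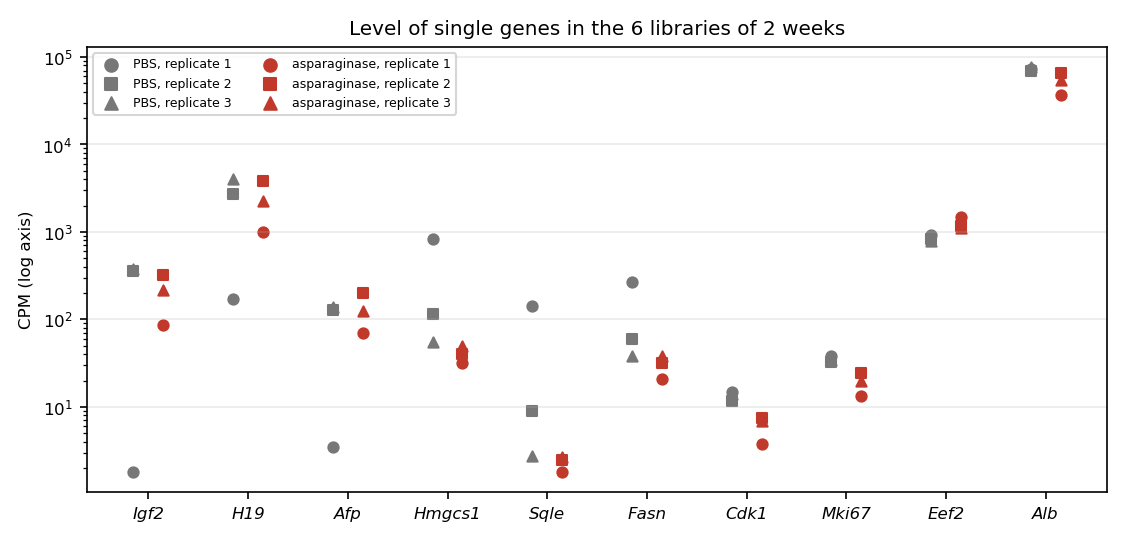
Level (CPM, log axis) of 10 genes in each of the 6 libraries of 2 weeks; grey points are PBS, red points asparaginase, and the shape gives the replicate. PBS replicate 1 has Igf2 at 1.81 CPM and Afp at 3.50 CPM, far below the other 5 libraries. Its Hmgcs1, Sqle and Fasn levels lie far above theirs. These genes separate the treatments only narrowly, at PBS replicate 3, whereas Cdk1, Mki67 and Eef2 separate them in all 6 libraries by a wider gap.

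Of 16213 genes tested, 33 (0.204%) passed an adjusted p of 0.05 in edgeR's quasi-likelihood test, 26 of them higher (0.16%) and 7 lower (0.0432%) with asparaginase. The median log2 fold change over all genes was 0.00, and the middle of the distribution, between its quartiles, ran from -0.16 to 0.15. The 3 libraries of each group did not overlap for 1312 genes that were higher (8.09%) and 1401 that were lower (8.64%) with asparaginase, and 849 (5.24%) and 992 (6.12%) had an unadjusted p under 0.05. The groups did not overlap for any of the 33 called genes. Of the 26 genes that rose, 25 were highest in asparaginase replicate 1 and 21 were lowest in asparaginase replicate 3. DESeq2 called 355 genes on the same libraries. The number of calls in edgeR was 1 with only the 6 libraries of 2 weeks in the fit, 6 with no sex term at any age and 0 without the 3 libraries that hold transcripts of both sexes. Single libraries moved it too, to 5 without PBS replicate 1, 3 without PBS replicate 2, 89 without PBS replicate 3 and 7 without asparaginase replicate 1. Asns and Ank passed in each of the 6 fits that left out a library of 2 weeks, Arhgef2 in 5 of them and Kpna2 in 0. All 33 kept their direction, which says little, since groups that do not overlap can hardly reverse without 1 library.

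**Figure D2:**
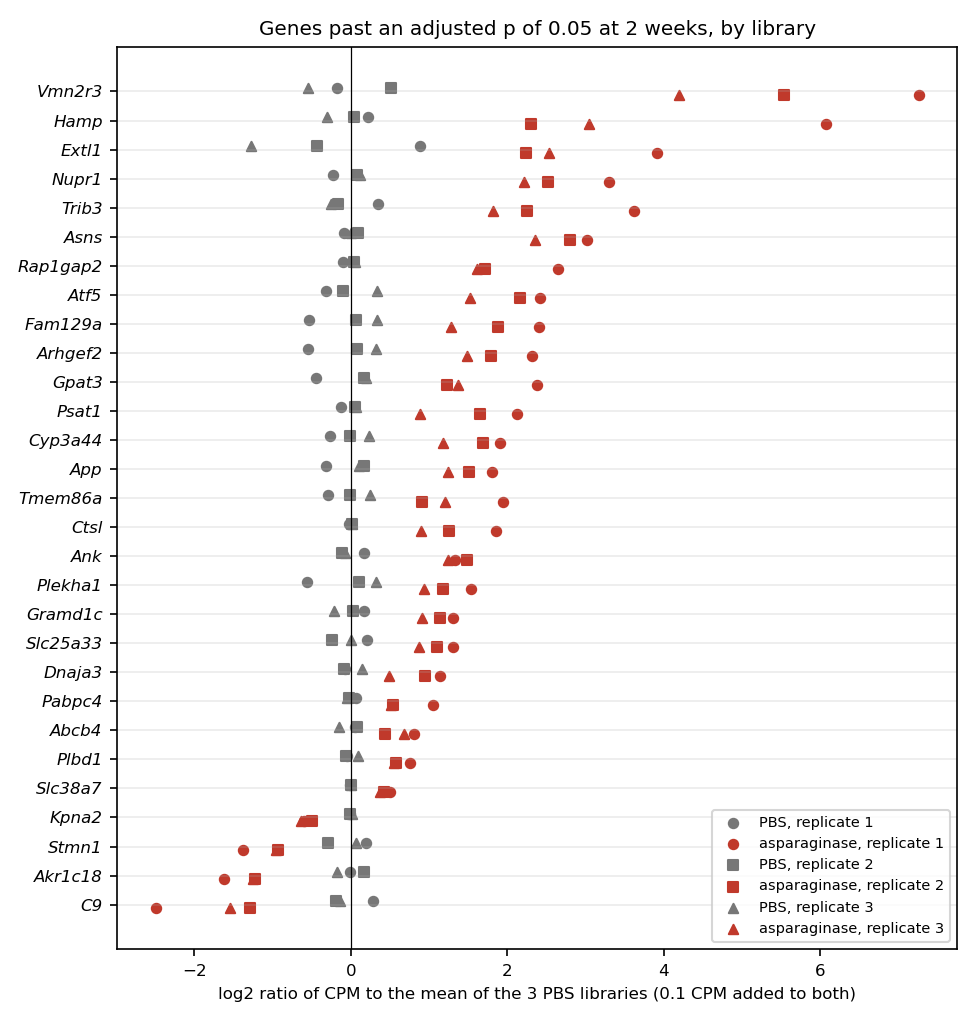
The 29 called genes that are not predicted copies (rows), with the log2 ratio of each library's CPM to the mean of the 3 PBS libraries, 0.1 CPM added to both. Grey points are PBS, red points asparaginase, and the shape gives the replicate; the 2 colours do not overlap in any row, and asparaginase replicate 1 lies outermost in most rows.

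The amino acid response held more calls than any other list, but its members were chosen with earlier results of these data known. 6 of its 37 tested members rose and 0 fell (0.16% and 0.0432% of all genes). The list's median log2 fold change was 0.51, and 16 lay higher and 1 lower without overlap (8.09% and 8.64% of all genes). Asns, asparagine synthetase (ENSMUSG00000029752, chromosome 6, 7675169 to 7693254, GRCm38), stood at 3.47, 3.93 and 3.69 CPM with PBS and at 30.7, 26.4 and 19.4 CPM with asparaginase. The groups were far apart (3.70 ± 0.233 against 25.5 ± 5.72 CPM, SD, n = 3 libraries each), and the gene rose 6.89-fold (log2 fold change 2.78, SE 0.22, adjusted p = 8.97e-05 by edgeR). Trib3, a pseudokinase that restrains ATF4, rose by a log2 fold change of 2.81. Atf5, a transcription factor related to ATF4, rose by 2.08 on that scale, Nupr1, a stress-induced chromatin protein, by 2.84, Psat1, an enzyme of serine synthesis, by 1.66 and Extl1, a glycosyltransferase, by 3.24. Fgf21, a hormone that liver secretes in protein shortage, was at 0.71, 2.09 and 2.22 CPM with PBS and at 37.0, 7.68 and 7.81 CPM with asparaginase, and its adjusted p was 0.092. Of the 6 called, 1 passed without asparaginase replicate 1, and likewise 1 without PBS replicate 1 and 1 without PBS replicate 2.

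The promoters of Asns and Fgf21 hold the composite element that ATF4 forms with C/EBP proteins (TGATGNAA, searched on both strands in the 250 bases before the start), and are shown because both genes report the response. In the RefSeq promoters of build GRCm38.p6, 10 of 33 genes of the amino acid list held this element (30.3%), against 3.91% of all genes with a promoter; of the called members, Trib3 and Atf5 showed no match in this window. A match is a description of the letters. The Asns stretch is chr6:7693210-7693257 on the minus strand and the Fgf21 stretch is chr7:45615597-45615654 on the minus strand, where the element reads on the opposite strand; capitals mark it.
Asns: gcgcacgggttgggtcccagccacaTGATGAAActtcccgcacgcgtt
Fgf21: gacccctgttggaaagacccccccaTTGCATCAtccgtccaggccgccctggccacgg

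The other genes that rose are given by what each is known to do; those among them that the naming rule did not take were named after their values were seen. Ank, an exporter of pyrophosphate and citrate, was at 22.9, 18.7 and 19.3 CPM with PBS and at 51.3, 57.1 and 48.1 CPM with asparaginase. The groups were well apart, and it rose 2.57-fold (log2 fold change 1.36, SE 0.15, adjusted p = 0.00254 by edgeR). Ctsl, the lysosomal protease cathepsin L, was at 414, 425 and 424 CPM with PBS and at 1527, 1004 and 787 CPM with asparaginase. The PBS values were nearly equal, the asparaginase values spread widely with replicate 1 highest, and the gene rose 2.63-fold. App, the amyloid precursor protein, was at 65.9, 92.7 and 88.3 CPM and at 287, 236 and 195 CPM, a 2.91-fold rise.

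Among genes of membrane and lipid handling, Gpat3, which acylates glycerol 3-phosphate, rose by 1.77 on the log2 scale, Tmem86a, a lysoplasmalogenase, by 1.43, Gramd1c, a carrier of sterol between membranes, by 1.13, Abcb4, the exporter of phosphatidylcholine into bile, by 0.65 and Plbd1, a lysosomal phospholipase B-like protein, by 0.64. Among carriers and mitochondrial proteins, Slc25a33, a mitochondrial pyrimidine nucleotide carrier, rose by 1.11, Dnaja3, a mitochondrial co-chaperone, by 0.88 and Slc38a7, a lysosomal exporter of glutamine and asparagine, by 0.43. The change of Slc38a7 was small and even, at 12.3, 12.4 and 12.3 CPM with PBS and at 17.5, 16.5 and 16.0 CPM with asparaginase. Among signalling genes, Arhgef2, a microtubule-bound activator of RhoA, rose by 1.92, Fam129a by 1.94, Rap1gap2, which switches off RAP1, by 2.12 and Plekha1, a phosphoinositide-binding adaptor, by 1.24. Pabpc4, a poly(A)-binding protein, rose by 0.72, as did its near-identical copy Gm10110 by 0.77, and reads of the pair may have been split between them. Vmn2r3, a vomeronasal receptor gene, was at 0.03, 0.11 and 0 CPM with PBS and at 22.4, 6.69 and 2.57 CPM with asparaginase. Of the 33 called genes, 9 overlap exons of another annotated gene, among them Atf5, Gpat3, Ctsl and Dnaja3, and whether counting used strand is not given in the sources used here.

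The 7 genes that fell were 4 genes and 3 of their copies. C9, the terminal complement component, was at 45.9, 33.1 and 34.5 CPM with PBS and at 6.61, 15.4 and 12.9 CPM with asparaginase. It fell 3.25-fold (log2 fold change -1.70, SE 0.27, adjusted p = 0.0234 by edgeR), and asparaginase replicate 1 was lowest. Akr1c18, a hydroxysteroid dehydrogenase that inactivates progesterone, was at 27.0, 30.6 and 24.1 CPM and at 8.76, 11.5 and 11.4 CPM, a log2 fold change of -1.37. Kpna2, an importin that carries proteins into the nucleus and is abundant in dividing cells, was at 58.7, 58.6 and 60.0 CPM and at 39.1, 41.9 and 38.0 CPM. It fell by 0.58 on the log2 scale with little spread, as did its copies Gm10259 and Gm10184. Stmn1, described with the cell division genes, fell with its copy Gm11223.

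Genes of cell division were lower with asparaginase in nearly the whole list, although only 1 passed the test. Of 54 tested members of the mitosis list, 1 fell, 0 rose, and for 52 the 3 asparaginase libraries lay below the 3 PBS libraries (8.64% of all genes did so). The list's median log2 fold change was -0.98 against 0.00 for all genes, and its members ran from -1.75 to 0.00. Stmn1, the microtubule-destabilising protein stathmin (ENSMUSG00000028832, chromosome 4, 134468320 to 134473843), was at 38.9, 27.9 and 35.6 CPM with PBS and at 13.1, 17.8 and 17.5 CPM with asparaginase. The groups did not overlap, and Stmn1 fell 2.12-fold (log2 fold change -1.08, SE 0.18, adjusted p = 0.0275 by edgeR). Cdk1, the kinase that drives entry into mitosis, was at 14.8, 11.6 and 13.9 CPM with PBS and at 3.76, 7.39 and 6.96 CPM with asparaginase (adjusted p = 0.102). Mki67, the marker of cycling cells, was at 38.2, 32.3 and 34.7 CPM and at 13.2, 24.6 and 19.6 CPM (adjusted p = 0.471), and Cdc25c, the phosphatase that activates CDK1, at 1.24, 0.90 and 1.22 CPM and at 0.25, 0.45 and 0.29 CPM (adjusted p = 0.0996). In whole liver, fewer dividing cells and less of these RNAs in each cell cannot be told apart.

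Stmn1 passed in 1 of the 6 fits that left out a library of 2 weeks. DESeq2 called 15 of the 54 lower, and limma-voom 4. The list's summed level was 498, 383 and 440 CPM in the PBS libraries and 194, 271 and 251 CPM in the asparaginase libraries. PBS replicate 1, low in the fetal transcripts, was the highest of the 6 here, and the groups did not overlap. Leaving out single libraries of 2 weeks moved the median between -0.83 and -1.09, and without asparaginase replicate 1 the members with an unadjusted p under 0.05 went from 44 to 29. Without both replicates 1 the median was -0.67 and 16 had such a p. Erythroid genes, which also mark a dividing population of young liver, summed to 1266, 962 and 468 CPM with PBS and to 307, 604 and 601 CPM with asparaginase. 6 of 8 were tested, 0 passed and 2 lay lower without overlap (8.64% of all genes did). Among the defining markers Epb42 was at most 0.166 CPM with PBS and at 0 in the asparaginase libraries, while Klf1, the erythroid transcription factor, was at 3.82, 2.39 and 1.69 CPM with PBS and at 5.10, 2.93 and 2.57 CPM with asparaginase. Of the 6 tested, 5 had a negative fitted change and only Klf1 a positive one, with its groups overlapping. The list's median log2 fold change was -0.69. The part of these cells in the mitosis result was not tested.

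The genes of DNA synthesis pointed the same way with smaller differences. Of 46 tested members 0 passed, 27 lay lower without overlap (8.64% of all genes did) and 0 higher, and the median was -0.58. Rrm1, the large subunit of ribonucleotide reductase, was at 18.6, 25.1 and 25.5 CPM with PBS and at 10.7, 16.7 and 15.8 CPM with asparaginase, and Dut, which removes dUTP, at 8.86, 8.00 and 8.91 CPM and at 5.25, 5.62 and 6.94 CPM. Their adjusted p-values were 0.128 and 0.111. Tk1, thymidine kinase, was at 34.8, 31.0 and 31.7 CPM and at 15.1, 19.9 and 23.9 CPM. All of these groups were separate, and asparaginase replicate 1 was lowest for each. Without that library the median was -0.42, and the members with an unadjusted p under 0.05 went from 31 to 17. They were 21 without PBS replicate 3.

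The promoters of Cdk1 and Hmgb2, a chromatin protein of dividing cells, are shown as the members of smallest p that hold the cell cycle genes homology region (TTTGAA). Of 44 mitosis genes with a promoter, 15 held these letters (34.1%), against 18.3% of all genes, and 31 held the NF-Y box CCAAT (70.5%), against 37.5%. Capitals mark TTTGAA in chr10:69352913-69353008 on the minus strand and in chr8:57511788-57511842 on the plus strand.
Cdk1: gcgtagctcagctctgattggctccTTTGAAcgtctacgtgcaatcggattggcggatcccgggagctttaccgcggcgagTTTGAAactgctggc
Hmgb2: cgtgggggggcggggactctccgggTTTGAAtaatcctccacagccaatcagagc

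No regulator of growth in the lists of cyclins and of the IGF axis passed the test, and the separated members lay in both directions (16.7% of all genes were separated in either direction). Of 20 tested cyclin D, CDK inhibitor and growth arrest genes, 2 lay higher and 3 lower without overlap, and the median was 0.08. Ccnd1, the cyclin that couples growth signals to the cell cycle, stood at a mean of 49.2 ± 4.03 CPM with PBS and of 25.5 ± 11.3 CPM with asparaginase (SD, n = 3, adjusted p = 0.379 by edgeR), with replicate 1 lowest at 12.5 CPM. Cdkn2c, an inhibitor of CDK4 and CDK6, was at 10.2, 6.16 and 6.72 CPM with PBS and at 3.11, 4.23 and 3.89 CPM with asparaginase (adjusted p = 0.0996). Gadd45a, a stress-induced growth arrest gene, was at 0.80, 0.76 and 0.86 CPM and at 12.4, 2.09 and 1.64 CPM (adjusted p = 0.103), with replicate 1 far above the others. In the IGF and growth hormone axis, 0 of 23 tested members passed, 4 lay higher and 3 lower without overlap, and the median was -0.08. Ghr, the growth hormone receptor, was at 281, 251 and 228 CPM with PBS and at 129, 196 and 173 CPM with asparaginase (adjusted p = 0.119). Igf1, the growth factor that the receptor induces, was at 365, 292 and 333 CPM and at 177, 269 and 237 CPM (adjusted p = 0.300). Igfbp1, the binding protein that fasting and amino acid shortage raise, was at 475, 1185 and 1228 CPM and at 1893, 2075 and 2042 CPM (adjusted p = 0.308). For Igfbp1 the asparaginase libraries were nearly equal, and PBS replicate 1 was low; without it the log2 fold change went from 1.06 to 0.72.

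Imprinted growth genes and fetal liver genes overlapped between the treatments. Of 17 imprinted genes tested, 0 passed and 0 lay apart in either direction, with a median of 0.03. Their sum was 1087, 4048 and 5238 CPM in the PBS libraries and 2110, 4999 and 3426 CPM in the asparaginase libraries. Of 7 fetal liver genes tested, 0 passed and 0 lay apart. Within each treatment replicate 1 had the lowest sum. For some members the overlap came from PBS replicate 1 alone. Igf2 was at 362 and 373 CPM in PBS replicates 2 and 3, above the asparaginase libraries at 86.3, 319 and 216 CPM. Gpc3 was at 9.69 CPM in PBS replicate 1 and at 53.5 and 70.5 CPM in PBS replicates 2 and 3. With asparaginase it was at 25.6, 51.6 and 29.0 CPM. H19 and Afp overlapped also without PBS replicate 1. The overlap does not show that levels were alike.

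**Figure D3:**
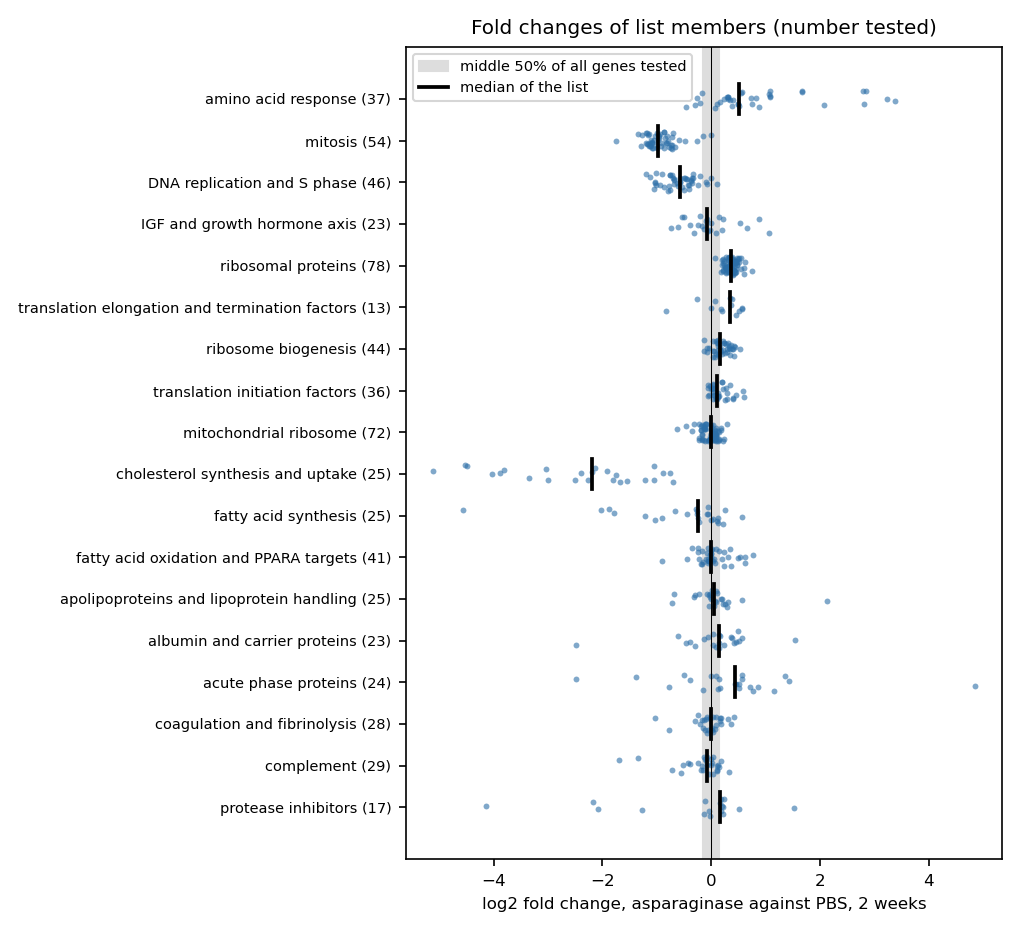
Log2 fold change of asparaginase against PBS at 2 weeks for each tested member (points) of 18 gene lists, with the list's median (black bar) and the middle 50% of all 16213 genes (grey band). The mitosis, S phase and cholesterol lists lie left of the band, with medians of -0.98, -0.58 and -2.19, and the ribosomal protein and elongation lists right of it, at 0.37 and 0.35. PBS replicate 1 sets much of the size of the cholesterol median.

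Cytoplasmic ribosomal protein genes were higher in the asparaginase libraries, and no gene of any translation list passed the test. Of 78 cytoplasmic ribosomal protein genes tested, 0 passed, 61 lay higher without overlap and 0 lower (8.09% and 8.64% of all genes), and the fitted change was positive for all 78. The median was 0.37, with members up to 0.75 (Rpl13a). Rplp0, a protein of the ribosomal stalk, was at 307, 256 and 278 CPM with PBS and at 531, 366 and 391 CPM with asparaginase (adjusted p = 0.123). Rpl4, of the large subunit, was at 374, 328 and 342 CPM and at 543, 434 and 423 CPM (adjusted p = 0.227). The groups were separate for both, and replicate 1 was the highest asparaginase library. Over the whole list the summed level showed the same order, at 11913, 11039 and 11190 CPM with PBS and at 18353, 12803 and 13689 CPM with asparaginase. Without asparaginase replicate 1 the median was 0.19, 77 of 78 changes were positive, and the members with an unadjusted p under 0.05 went from 51 to 8; they were 22 without PBS replicate 2 and 26 without PBS replicate 3. DESeq2 called 3 of the 78 higher.

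Elongation and termination factors had values like those of the ribosomal proteins. Of 13 tested, 0 passed, 7 lay higher and 2 lower without overlap (8.09% and 8.64% of all genes), and the median was 0.35. The 2 that lay lower were the kinase Eef2k and Nacc1. Neither is itself an elongation or termination factor, and nor is Tpt1, which lay higher. Eef2, the factor that moves the ribosome along the message, was at 911, 830 and 780 CPM with PBS and at 1466, 1158 and 1116 CPM with asparaginase (log2 fold change 0.57, SE 0.13, adjusted p = 0.0929 by edgeR). Eef1a1, which delivers aminoacyl-tRNA, was at 2713, 2465 and 2173 CPM and at 4035, 2996 and 3043 CPM, and Tpt1 at 686, 690 and 765 CPM and at 1202, 904 and 963 CPM. Eef2k, the kinase that inhibits eEF2, lay on the other side, at 8.23, 4.07 and 4.41 CPM and at 3.11, 3.19 and 3.05 CPM (adjusted p = 0.161). Pabpc1, the main poly(A)-binding protein, was at 170, 147 and 144 CPM and at 269, 208 and 213 CPM (adjusted p = 0.0622). Its relative Pabpc4 is among the genes that rose.

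The medians of the other translation lists lay closer to 0. Among all genes tested, 8.09% lay higher and 8.64% lower without overlap. For ribosome biogenesis 0 of 44 passed, 10 lay higher without overlap and 0 lower, and the median was 0.17; Npm1, the nucleolar chaperone nucleophosmin, was at 102, 114 and 98.9 CPM with PBS and at 193, 128 and 132 CPM with asparaginase. For initiation factors 0 of 36 passed, 7 lay higher and 0 lower, and the median was 0.10. Eif3c, a subunit of the factor that binds the small subunit, was at 70.4, 72.2 and 72.2 CPM and at 135, 112 and 81.8 CPM (adjusted p = 0.102). Of 20 cytosolic aminoacyl-tRNA synthetases 0 passed and 4 lay higher, among them Sars, which charges the serine tRNA, at 25.4, 20.8 and 21.1 CPM and at 45.3, 35.6 and 30.8 CPM (adjusted p = 0.0996). The mitochondrial ribosome lay near 0 as a list. Of 72 tested 0 passed, 2 lay higher and 7 lower, and the median was 0.00. Mrpl18 was at 29.9, 37.8 and 34.0 CPM and at 21.1, 21.8 and 23.1 CPM (adjusted p = 0.0622). mTORC1 and amino acid sensing genes had a median of 0.03, with 0 of 37 passing, 2 higher and 5 lower.

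**Figure D4:**
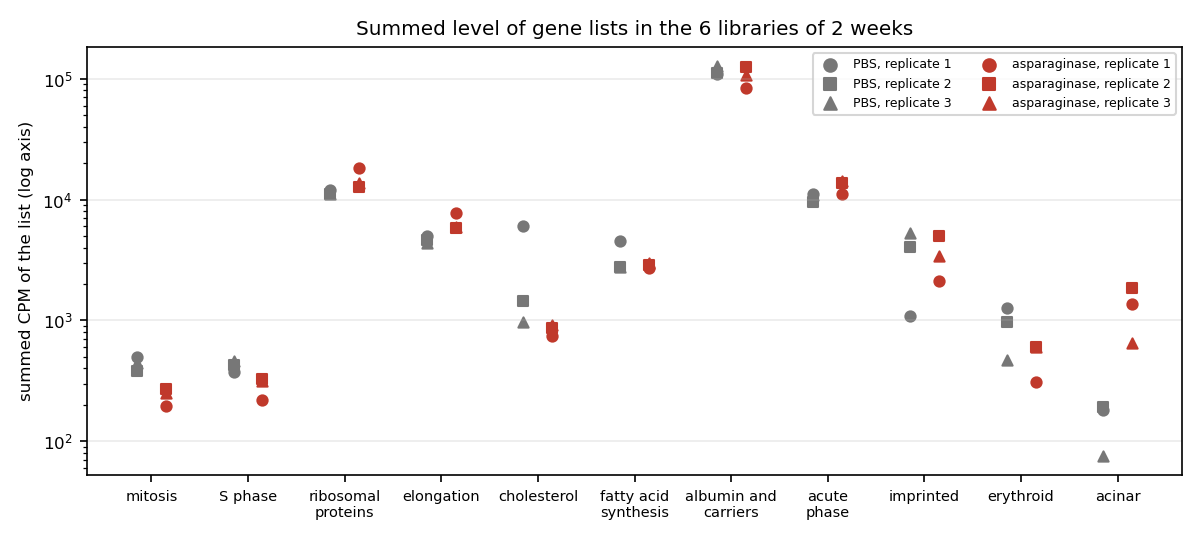
Summed CPM (log axis) of 11 gene lists in each of the 6 libraries of 2 weeks; grey points are PBS, red points asparaginase, and the shape gives the replicate. The mitosis, S phase, ribosomal protein, elongation and acinar sums separate the treatments, the cholesterol sum does so mainly through PBS replicate 1 at 6063 CPM, and the imprinted sum follows the 2 replicates 1.

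The cholesterol genes had the lowest median of all lists, and 1 library set its size. Of 25 tested members of cholesterol synthesis and uptake 0 passed, and 17 lay lower without overlap (8.64% of all genes did) and 0 higher. All 25 had an unadjusted p under 0.05, and the median log2 fold change was -2.19. Their sum was 6063 CPM in PBS replicate 1, 1442 and 964 CPM in PBS replicates 2 and 3, and 746, 865 and 908 CPM with asparaginase. Hmgcs1, which makes HMG-CoA, was at 826, 115 and 54.6 CPM with PBS and at 31.3, 39.8 and 49.6 CPM with asparaginase (332 ± 429 against 40.2 ± 9.13 CPM, adjusted p = 0.128). Idi1, an isomerase of the same pathway, was at 500, 48.2 and 9.30 CPM and at 3.89, 5.50 and 6.70 CPM (adjusted p = 0.0767). Sqle, squalene epoxidase, was at 144, 8.92 and 2.75 CPM and at 1.79, 2.46 and 2.70 CPM (adjusted p = 0.111). Without PBS replicate 1 the log2 fold change of Hmgcs1 went from -3.04 to -1.08, that of Idi1 from -5.11 to -2.43 and that of Sqle from -4.48 to -1.34. For these genes all 3 PBS libraries lay above the asparaginase libraries, but PBS replicate 3 only narrowly. Without PBS replicate 1 the median was -0.82, all 25 changes were still negative, and 17 had an unadjusted p under 0.05; without both replicates 1 it was -0.80, with 10. Without PBS replicate 3, the lowest of the PBS libraries, 16 of the 25 passed an adjusted p of 0.05, and DESeq2 called 16 on all libraries.

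Hmgcs1 was the cholesterol gene of smallest p whose promoter held the sterol regulatory element (TCACNCCAC, both strands), which SREBP2 binds when sterol is scarce. It was the single gene with these letters among 17 of the list with a promoter (5.88%), against 1.22% of all genes, whereas 16 of the 17 held CCAAT (94.1%). The stretch is chr13:119690189-119690247 on the plus strand, with the element in capitals.
Hmgcs1: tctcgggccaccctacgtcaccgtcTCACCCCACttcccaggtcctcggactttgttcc

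Fatty acid synthesis showed the same library pattern in a smaller part of the list. Of 25 tested 0 passed, and 5 lay lower and 1 higher without overlap (16.7% of all genes were separated). The median was -0.23, which became 0.05 without PBS replicate 1. Without PBS replicate 3, 3 of the 25 passed. Fasn, fatty acid synthase, was at 271, 60.4 and 38.5 CPM with PBS and at 20.9, 31.8 and 38.0 CPM with asparaginase (adjusted p = 0.130). Srebf1, the transcription factor of the lipogenic genes, was at 147, 89.9 and 103 CPM and at 45.7, 66.4 and 70.8 CPM (adjusted p = 0.124). Thrsp, a lipogenic protein, was at 215, 29.1 and 8.10 CPM and at 1.14, 2.03 and 7.55 CPM (adjusted p = 0.092). Srebf1 was separate with a modest gap in each library, while for Fasn and Thrsp PBS replicate 3 nearly met the asparaginase libraries. Without PBS replicate 1 the log2 fold change of Fasn went from -2.03 to -0.72 and that of Thrsp from -4.55 to -2.39.

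Genes of fat breakdown lay on both sides of 0. Of 41 genes of fatty acid oxidation and PPARA targets 0 passed, 4 lay higher and 5 lower, and the median was -0.01. The share of all genes separated in either direction was 16.7%. Cpt1a, which admits fatty acids to mitochondria, was at 325, 365 and 395 CPM with PBS and at 639, 454 and 470 CPM with asparaginase (adjusted p = 0.238). Slc27a2, a fatty acid transporter, was at 830, 899 and 891 CPM and at 1247, 1123 and 1298 CPM (adjusted p = 0.145). Acaa2, a thiolase of mitochondrial beta-oxidation, was at 603, 581 and 586 CPM and at 464, 510 and 518 CPM (adjusted p = 0.413). Fabp1, the fatty acid binding protein of liver, was at 2079, 996 and 774 CPM and at 641, 569 and 839 CPM (adjusted p = 0.233), and its log2 fold change of -0.91 was -0.38 without PBS replicate 1. Cpt1a, Slc27a2 and Acaa2 were separated between the groups, and Fabp1 was not. Ketone body genes had a median of 0.07 with 0 of 7 passing and 0 apart. Lipid storage genes had a median of 0.06 with 0 of 22 passing, 2 higher and 1 lower without overlap.

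Apolipoprotein genes also lay on both sides. Of 25 genes of lipoprotein handling 0 passed, 3 lay higher and 3 lower (16.7% of all genes were separated), and the median was 0.05. Apoc3, which slows the clearance of triglyceride, was at 417, 359 and 424 CPM with PBS and at 216, 262 and 254 CPM with asparaginase (adjusted p = 0.102). Apoa4, of intestine and fasting liver, was at 19.7, 35.9 and 43.7 CPM and at 309, 86.0 and 39.6 CPM, so the groups overlapped and replicate 1 set the mean. Apoe, which returns remnants to the liver, was at 7727, 9210 and 10816 CPM and at 11056, 11994 and 11225 CPM, separate by little. In bile acid synthesis and transport 1 of 27 rose: Abcb4 was at 125, 127 and 109 CPM and at 211, 162 and 193 CPM (log2 fold change 0.65, SE 0.12, adjusted p = 0.0476 by edgeR). 0 of the 27 fell, and the list's median was -0.12. Abcb4 passed in 1 of the 6 fits without a library of 2 weeks.

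Plasma protein genes lay on both sides of the PBS levels. Among all genes tested, 8.09% lay higher and 8.64% lower without overlap. Of 24 acute phase genes 1 rose and 0 fell, 5 lay higher and 0 lower without overlap, and the median was 0.44. The one that rose was Hamp, the iron hormone hepcidin, at 1.60, 1.41 and 1.08 CPM with PBS and at 98.9, 7.14 and 12.0 CPM with asparaginase (log2 fold change 4.85, SE 0.81, adjusted p = 0.0287 by edgeR). All asparaginase libraries exceeded all PBS libraries, and replicate 1 was far above the other asparaginase libraries. Without single libraries of 2 weeks the log2 fold change ran from 2.81 to 5.32, and Hamp passed in 3 of 6 such fits. Hpx, which binds free haem, was at 2188, 2004 and 2296 CPM and at 3012, 3169 and 3395 CPM (adjusted p = 0.257), and Itih4 at 1547, 1367 and 1685 CPM and at 1792, 2386 and 2398 CPM (adjusted p = 0.174). Orm1, a classical acute phase protein, was at 142, 25.7 and 2.05 CPM and at 1.09, 20.1 and 9.32 CPM, with no separation. The list's median lay between 0.11 without asparaginase replicate 3, or 0.12 without asparaginase replicate 2, and 0.59 without asparaginase replicate 1.

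Albumin and its fellow carriers split. Alb was at 72634, 68442 and 76356 CPM with PBS and at 36492, 66064 and 54266 CPM with asparaginase (adjusted p = 0.441). Ttr, the carrier of thyroxine and retinol, was at 2890, 3192 and 3759 CPM and at 1530, 2634 and 2270 CPM (adjusted p = 0.190). Both were lowest in asparaginase replicate 1. Serpina7, thyroxine-binding globulin, lay in the opposite direction, at 46.4, 51.4 and 72.1 CPM and at 213, 157 and 123 CPM (adjusted p = 0.092), and so did Rbp4, the retinol carrier, at 1766, 2081 and 2024 CPM and at 2867, 2390 and 2438 CPM (adjusted p = 0.252). Of the 23 tested carriers 0 passed, 6 lay higher and 3 lower (16.7% of all genes were separated), and the median was 0.15.

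Complement and coagulation held 1 call between them. In complement, 1 of 29 fell and 0 rose, 2 lay lower and 0 higher without overlap, and the median was -0.08; the one that fell was C9, which passed in 3 of the 6 fits without a library of 2 weeks. In coagulation and fibrinolysis 0 of 28 passed, 3 lay higher and 1 lower, and the median was 0.00. These counts stand beside 16.7% of all genes that were separated in either direction. Kng1, kininogen, was at 1808, 1707 and 1672 CPM with PBS and at 2209, 2421 and 2354 CPM with asparaginase (adjusted p = 0.183), while F11, factor XI, was at 64.5, 61.9 and 64.4 CPM and at 22.9, 46.9 and 41.6 CPM (adjusted p = 0.183). The kininogen values were tight within each group, whereas F11 was lowest in replicate 1. Among 17 protease inhibitors 0 passed, 2 lay higher and 2 lower, and Serpina3k was at 2080, 525 and 318 CPM and at 210, 212 and 270 CPM, again highest in PBS replicate 1. Without that library the log2 fold change of Serpina3k went from -2.08 to -0.88.

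Replicates correlated closely over all genes, about as closely as libraries of different treatments. The Pearson correlation of log2 CPM (0.5 added) across the 16213 genes, which are not independent replicates, lay between 0.976 and 0.991 for the 6 pairs within a treatment and between 0.969 and 0.991 for the 9 pairs between treatments. PBS replicates 2 and 3 differed by more than 2-fold in 101 of the 7891 genes above 10 CPM, and PBS replicate 2 and asparaginase replicate 3 in 115, whereas PBS replicate 1 and PBS replicate 3 differed in 409. The widest pair was PBS replicate 1 and asparaginase replicate 1, with 510. In a principal component analysis of the 2000 most variable genes the leading component held 44.5% of the variance, and PBS replicate 1 lay at 39.5 on it, PBS replicates 2 and 3 at 5.25 and 2.78, and the asparaginase libraries at -17.1, -22.1 and -8.42. The treatments did not overlap on that component, and its longest step was between PBS replicate 1 and the other PBS libraries.

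The response at 2 weeks was compared with the mean response at 8 and 16 weeks by testing the difference itself. Of 16213 genes 0 passed (0%), with 1068 at an unadjusted p under 0.05 (6.59%) and a smallest adjusted p of 0.0749 by edgeR; DESeq2 called 105 genes and limma 0. The smallest adjusted p was shared by Ugt3a1 with genes of cell division. Ugt3a1, an enzyme that adds N-acetylglucosamine to small molecules, was at 17.6, 19.1 and 19.6 CPM with PBS and at 26.7, 26.9 and 28.1 CPM with asparaginase at 2 weeks, with log2 fold changes of 0.54, -0.44 and -0.28 at 2, 8 and 16 weeks. Its libraries were tight within each group at 2 weeks. Stmn1 had a difference of -1.49 on the log2 scale (SE 0.23), as its log2 fold changes were -1.08 at 2 weeks and 0.41 at both 8 and 16 weeks. Spag5, a protein of the mitotic spindle, was at 4.71, 3.99 and 4.30 CPM with PBS and at 1.72, 2.20 and 2.15 CPM with asparaginase at 2 weeks, with log2 fold changes of -1.10, 0.66 and 1.42 at 2, 8 and 16 weeks (adjusted p of the difference 0.0749). Over the mitosis list the medians were -0.98, 0.62 and 1.24, and 50 of 54 members had an unadjusted p under 0.05 for the difference. Markers of other tissues also differed in the adult libraries, with medians at 8 weeks of 6.75 for squamous epithelium and 7.24 for acinar cells, and at 16 weeks of -1.70 and 1.19. Their part in the difference was not tested. Levels were lower in adult PBS liver, where Mki67 stood at 3.25, 1.92 and 9.42 CPM at 8 weeks. With asparaginase at that age it stood at 12.2, 1.8 and 3.19 CPM. The median level of Cdk1 at 8 weeks was 2.0 CPM with PBS and 1.2 CPM with asparaginase. For Top2a it was 2.5 and 1.7 CPM. In each of these genes the treatments overlapped at 8 weeks. At 16 weeks Cdk1 and Top2a overlapped, and Mki67 was higher without overlap. The fitted adult changes include a labelled sex term, whose part in the mitosis medians was not tested.

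Other differences from the adult ages concerned single genes. Hamp, Fam129a, Cyp3a44 and Plbd1 rose at 2 weeks and had adult log2 fold changes between -0.23 and 0.20; the adjusted p-values of their differences were 0.0963, 0.0924, 0.0986 and 0.0924. Psat1, Mthfd2 and Pck2, enzymes of serine synthesis, mitochondrial one-carbon metabolism and gluconeogenesis, had lower log2 fold changes at 2 weeks than in adults, with adjusted p-values of the difference of 0.0993, 0.0888 and 0.0888. Mthfd2 was at 1.33, 0.76 and 1.05 CPM with PBS and at 1.24, 1.92 and 1.32 CPM with asparaginase at 2 weeks, a log2 fold change of 0.51 against 1.95 at 8 and 3.66 at 16 weeks. Its groups overlapped at 2 weeks, and none of these differences passed. The called genes themselves largely kept their sign: 23 of the 26 that rose were positive at both adult ages, 5 of the 33 were also called at 8 weeks (where 0.444% of genes were) and 9 at 16 weeks (0.247%). The median of the ribosomal proteins was 0.37, -0.02 and 0.20 at the 3 ages and that of the cholesterol genes -2.19, -0.59 and -0.24. As given above, the cholesterol median at 2 weeks was much smaller in size without PBS replicate 1, and then nearer to that of 8 weeks. The ribosomal median at 2 weeks was smaller without asparaginase replicate 1.

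**Figure D5:**
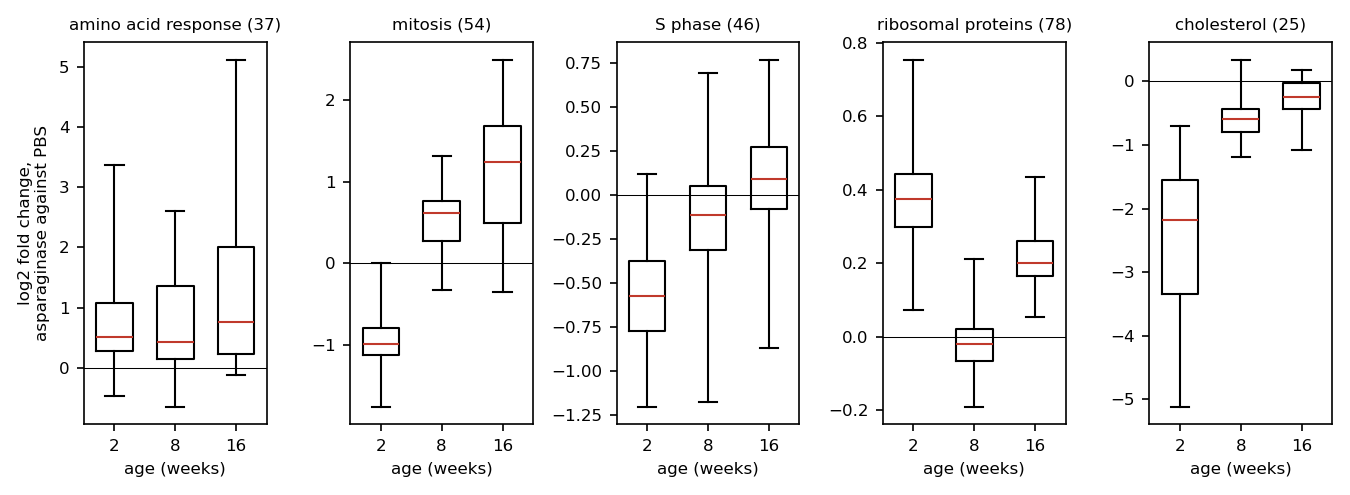
Log2 fold change of asparaginase against PBS for the tested members of 5 lists at 2, 8 and 16 weeks; red lines are medians, boxes the quartiles and whiskers the lowest and highest member, and each panel has its own axis. The mitosis medians are -0.98, 0.62 and 1.24. The fitted changes of that list lie below 0 at 2 weeks and mostly above it at both adult ages. At the adult ages the fit holds a labelled sex term. PBS replicate 1 sets much of the size of the cholesterol changes at 2 weeks. The amino acid response lies mostly above 0 at each age.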

How the data were processed

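The authors deposited 1 table of raw counts per gene, whole numbers for 37315 genes and 18 libraries of polyadenylated RNA. The submitters' processing notes list TopHat, TopHat2 in version 2.0.9 and DESeq2, and name GRCm38 and mm10 as builds; which read counter, annotation and strand setting were used is not given in the sources used here. Symbols and positions came from GENCODE M21, which matched 35533 identifiers. Genes were kept by filterByExpr (minimum count 10, minimum total 15), libraries were scaled by TMM, and edgeR 4.0.16 (R 4.3.3) fitted a quasi-likelihood model to all 18 libraries with 6 group terms and a labelled sex term at 8 and at 16 weeks, leaving 10 residual degrees of freedom. Benjamini-Hochberg adjustment ran over 16213 genes, and every adjusted p is edgeR's unless another tool is named; rose and fell mean an adjusted p under 0.05. The standard error is the absolute log2 fold change over the square root of F. The 6 libraries of 2 weeks held 26507374 to 28491923 counts, and precision is lowest for genes of few counts. Lists (1194 entries in 51 lists, 1185 matched) are described by counts and medians with no test. Members, lists and tests were chosen with earlier results of these data known. The genes named by rule were 236: Asns, Trib3, Atf5 and Fgf21, the 12 largest rises and falls, and members of each list taken by call, level and smallest p; a further 23 were added after their values were seen, among them Igf1, Cdk1, Sqle and Fasn. Some items are not reported here. Near-identical copies were found with blastn 2.17.0, promoters are RefSeq's of GRCm38.p6, and the fit was tested on simulated counts. Alternatives were other scalings, DESeq2 1.42.0, limma-voom 3.58.1, other filters, sex terms and thresholds, and leaving out each library. The order of deposition numbers the replicates, and the labels' numbers pair no mice.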

Additional observations from a re-analysis of the deposited data

How the results depend on the processing

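The count of genes called at 2 weeks (33) was 31 with DESeq2's size factors, 32 with upper quartile scaling, 45 with limma-voom and 36 with a mean of at least 1 CPM. It was 355 with DESeq2 (152 higher and 203 lower), 77 without a filter, 1 with only the 6 libraries of 2 weeks, 70 with labelled sex at every age, 6 with no sex term and 2 at an adjusted p under 0.01. With the Y-linked transcripts as a covariate, chosen after seeing the data, it was 17. Leaving out 1 library gave 3 to 89; beside the libraries named above, it was 49 without asparaginase replicate 3 of 2 weeks and 17 without PBS replicate 1 of 16 weeks. Without the 3 libraries of both sexes it was 0, with 1 PBS library left and assumed to vary like the other groups, and without both replicates 1 of 2 weeks, a choice made after seeing the data, it was 5. The difference from the adult ages (0 genes) gave 105 with DESeq2, 25 without a filter, 1 with labelled sex at every age and 0 to 4 when 1 library was left out. The causes of these shifts were not tested. No named gene with an unadjusted p under 0.05 changed direction under the other scalings, tools, filters and sex terms or without any 1 library. Genes picked by such a p seldom reverse, so this is no measure of stability. No paired analysis was possible because the labels' numbers are unique to each mouse. With 3 libraries a group, an adjusted p above the threshold does not show that levels were alike.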

Other observations

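Outside the groups above, drug-metabolizing cytochromes held 1 rise in 37 tested and 0 falls. Cyp3a44, of the cytochrome P450 3A family, was at 51.8, 61.5 and 72.7 CPM with PBS and at 232, 201 and 140 CPM with asparaginase, and it rose 3.08-fold (log2 fold change 1.63, SE 0.26, adjusted p = 0.0222 by edgeR). Over 1081 of its 1962 transcript bases it is 95.6% identical to Cyp3a63-ps, so reads of the pair may have been split. Cyp2f2, of periportal hepatocytes, was at 262, 74.6 and 41.7 CPM and at 22.4, 25.3 and 31.6 CPM (adjusted p = 0.0857), highest in PBS replicate 1 as the cholesterol genes were, and its log2 fold change went from -2.25 to -1.15 without that library. The list's median was -0.12. Hamp2, the neighbour of Hamp, was at 1.60, 2.74 and 1.83 CPM and at 66.9, 5.93 and 14.1 CPM (adjusted p = 0.0591). Of 23 iron genes 3 lay higher and 1 lower without overlap, near the 16.7% of all genes that were separated.

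The lists of energy and nitrogen metabolism held no call, and their medians lay within the middle 50% of all genes, between -0.16 and 0.15. Of 70 nuclear-encoded respiratory chain genes 0 passed, 26 lay lower without overlap (8.64% of all genes did) and 0 higher, and the median was -0.11. Uqcr11, a small subunit of complex III, was at 70.4, 62.8 and 66.3 CPM with PBS and at 53.5, 48.9 and 52.2 CPM with asparaginase (adjusted p = 0.257). Of 40 genes of the urea cycle and amino acid breakdown 0 passed, 8 lay lower and 0 higher, and the median was -0.10; Otc, which makes citrulline, was at 440, 439 and 427 CPM and at 292, 362 and 352 CPM (adjusted p = 0.257). Uroc1, of histidine breakdown, was at 272, 310 and 308 CPM and at 185, 231 and 219 CPM (adjusted p = 0.127). Of 24 genes of gluconeogenesis and glycolysis 0 passed, 3 lay higher and 4 lower (8.09% and 8.64% of all genes), and the median was -0.05. ER chaperones had a median of -0.05, with 0 of 41 passing and 3 higher, among them Ern1, a sensor of unfolded protein, at 50.4, 41.8 and 36.3 CPM and at 86.7, 81.4 and 61.4 CPM (adjusted p = 0.186).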
